A study of Mus musculus with 6 samples.

Results

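This is an account of the step from mesenchymal condensation to cartilage anlagen in the mouse hind limb, read from the 2 dye-swapped arrays, of 6 in the series, whose titles pair the 12.5 dpc condensation with the 13.5 dpc cartilage anlagen. The study followed the tibia and fibula region of Swiss white mouse embryos from undifferentiated mesenchyme to early cartilage, and asked which transcripts change at each step. The 12.5 dpc pool held RNA from 3 hind limbs and the 13.5 dpc pool RNA from 4, with no genetic alteration and no treatment in either. The tissue was cut out of cryosections by microdissection, its RNA was amplified linearly in 2 rounds, and both pools were labelled with Cy3 and Cy5 and hybridised together to whole genome oligonucleotide arrays. On array 1 the 13.5 dpc pool carried Cy5, and on array 2 it carried Cy3. The 2 arrays are therefore a repeat measurement of the same pair of pools and count as 1 sample of each stage. They show how well a ratio was measured and not how much litters differ, so no p-value is given. The remaining 4 arrays compare the same pools with, or through, an 11.5 dpc pool.

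A limb skeleton starts as loose mesenchyme whose cells gather into dense, avascular condensations held together by cell adhesion molecules. Under the transcription factor Sox9 and its partners Sox5 and Sox6, the condensed cells become chondrocytes and secrete a matrix of type II, IX and XI collagen fibrils and the hydrated proteoglycan aggrecan. In the middle of the later shaft the chondrocytes stop dividing and turn prehypertrophic, a stage known for Ihh, Pth1r and Panx3, while cells at the future joints and in the perichondrium follow other paths.

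A value below is the log2 of the 13.5 dpc over the 12.5 dpc signal, after the median of each array was subtracted, so that 1 means 2-fold higher at 13.5 dpc and negative values mean a lower level at 13.5 dpc. It is a difference between stages and says nothing about how strongly a gene was expressed. Where 2 values are given for a gene, that of array 1 comes first. A gene with several spots is the mean of its spots, and a gene was called where both arrays showed at least a 3-fold difference in the same direction. Each array's distance from the mean of both is called the technical error.

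Of 18955 genes with a value on both arrays, 188 were called higher at 13.5 dpc (0.992%) and 63 were called lower (0.332%). In the same direction by any amount were 6237 genes higher (32.9%) and 5715 lower (30.2%), against 6994 whose arrays pointed opposite ways. The genes called higher had a median difference of 5.09-fold and reached 79.0-fold, and 20 of them were at least 10-fold higher on both arrays. The genes called lower had a median of 4.73-fold and reached 16.9-fold, and Gas1 alone was at least 10-fold lower on both arrays. The balance of directions rested on the centring: without it the median of all genes was -0.20, and the calls were 118 higher and 126 lower, so that the higher share of calls was 48.4% in place of 74.9%.

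**Figure D1:**
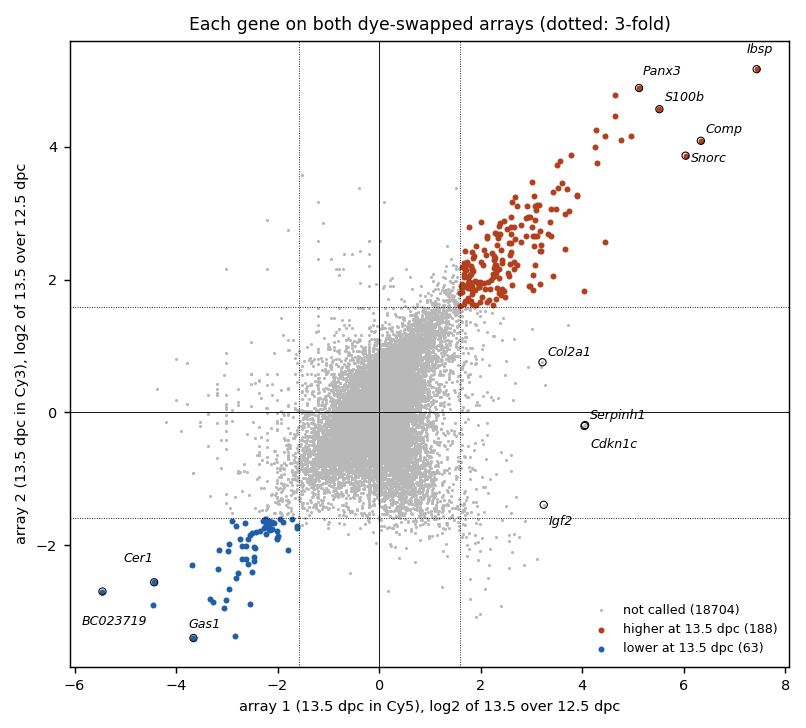
Log2 ratio of 13.5 over 12.5 dpc of each gene on array 1 (x axis, 13.5 dpc in Cy5) and on array 2 (y axis, 13.5 dpc in Cy3), with dotted lines at 3-fold. The 188 genes called higher (red) and the 63 called lower (blue) lie beyond 3-fold on both axes, while Serpinh1, Cdkn1c and Igf2 lie beyond 3-fold on array 1 and below 0 on array 2.

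A call asks that both arrays pass, so the agreement of called genes is partly set by the rule. The median technical error was 0.201 log2 over all genes, 0.15 over those called higher and 0.24 over those called lower, and of the latter 58 of 63 were further from 0 on array 1. Over the genes measured the arrays correlated with r = 0.422, a description only, since genes are not replicates. Of 44186 spots with both values, 15103 (34.2%) were marked weak, because the deposited ratio on either array was an exact ratio of whole numbers up to 12, which was taken as a sign of low signal. The spots marked weak correlated between the arrays with r = 0.028 and the others with r = 0.475. All spots of 5 genes called higher and of 3 called lower carried the mark, and 142 of the 188 and 46 of the 63 rest on 1 spot. As many as 40 genes passed 3-fold higher on array 1 and 3-fold lower on array 2, and 16 of these encode ribosomal proteins. The 75 ribosomal protein genes measured had a median of 1.15 on array 1 and -1.05 on array 2. For such genes the sign of the ratio went with the dye and not with the stage, and a mean near 0 is not a measurement of no change.

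The labelled tissues were set beside their markers. These were chosen with earlier results of these data known, so they are not an independent check. Of 9 cartilage markers, 7 were called higher and all 9 lay above 0 on both arrays, the exceptions to the call being Col2a1 and Sox9. Of 7 markers of condensing mesenchyme, Pcdh8 and Tbx18 were called lower and 6 lay below 0 on both arrays. The wider list of 29 condensation genes described below was split, with 13 below 0 on both arrays and 11 above. Ratios cannot show whether a marker was absent from a pool, and in pooled tissue fewer cells of a type and less RNA per cell cannot be told apart.

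The genes furthest above 0 on both arrays included several known from maturing cartilage and early bone. Ibsp, which encodes the integrin-binding sialoprotein of mineralising matrix, had log2 ratios of 7.44 and 5.17, the highest of all genes on both arrays. Panx3, a channel protein of prehypertrophic chondrocytes and osteoblasts, had 5.12 and 4.89, a mean difference of 32.1-fold. Smpd3, the neutral sphingomyelinase needed for skeletal mineralisation, had 4.29 and 3.75. Sgms2, which makes the sphingomyelin that Smpd3 splits, had 4.66 and 4.79. Both enzymes, which act in opposite directions on the same lipid, were more than 10-fold higher on each array.

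Structural genes of cartilage were also among the 25 highest. Comp, a pentameric glycoprotein that binds collagen, had 6.34 and 4.09, and Snorc, a small transmembrane proteoglycan of chondrocytes, had 6.04 and 3.87. In both the arrays lay far apart, with technical errors of 1.12 and 1.08, though the lower of them was still above 10-fold. The path through the 11.5 dpc pool, which uses the other 4 arrays, gave 2.27 for Comp and 1.99 for Snorc, well under their means of 5.22 and 4.95, so their size was not settled. Epyc, or epiphycan, a small leucine-rich proteoglycan of growth cartilage, had 3.71 and 3.37. S100b, a calcium-binding protein of chondrocytes and of glia, had 5.52 and 4.57. Hrc, a calcium-binding protein best known from muscle, had 3.53 and 3.39, with the arrays close together.

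Regulators in this group covered transcription, growth control and secreted signals. Foxa2, a forkhead factor that drives hypertrophic differentiation, had 4.65 and 4.47 over 10 spots. Cdkn1a, which encodes the cyclin-dependent kinase inhibitor p21, had 3.51 and 3.73, also over 10 spots. Bmp8a, a bone morphogenetic protein, had 4.96 and 4.16. These 3 genes lay more than 10-fold apart between the stages on each array. Nupr1, a small nuclear protein of the stress response, had 4.76 and 4.1. Vdr, the vitamin D receptor, had 3.39 and 3.07, and Bcl6, a transcriptional repressor, had 3.11 and 3.13. Pdgfa, a growth factor for mesenchymal cells, had 3.89 and 3.26. In each of these the higher array exceeded the lower by less than 1 log2 unit.

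The other members of the 25 were surface, lipid and adhesion proteins. Lims2, an adaptor at focal adhesions, had 4.45 and 4.17, and Entpd3, an enzyme that splits extracellular nucleotides, had 4.25 and 4.0. Meltf, an iron-binding protein anchored to the membrane, had 3.56 and 3.79. Lgals3, the galactose-binding lectin galectin-3, had 3.90 and 3.28, Lrp8, a receptor for reelin and apolipoprotein E, had 3.43 and 3.32, and Fabp3, a fatty acid carrier, had 3.15 and 3.13. Smim5 at 4.27 and 4.26, Cgref1 at 3.61 and 3.46 and 2900055J20Rik at 3.78 and 3.88 complete the list.

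**Figure D2:**
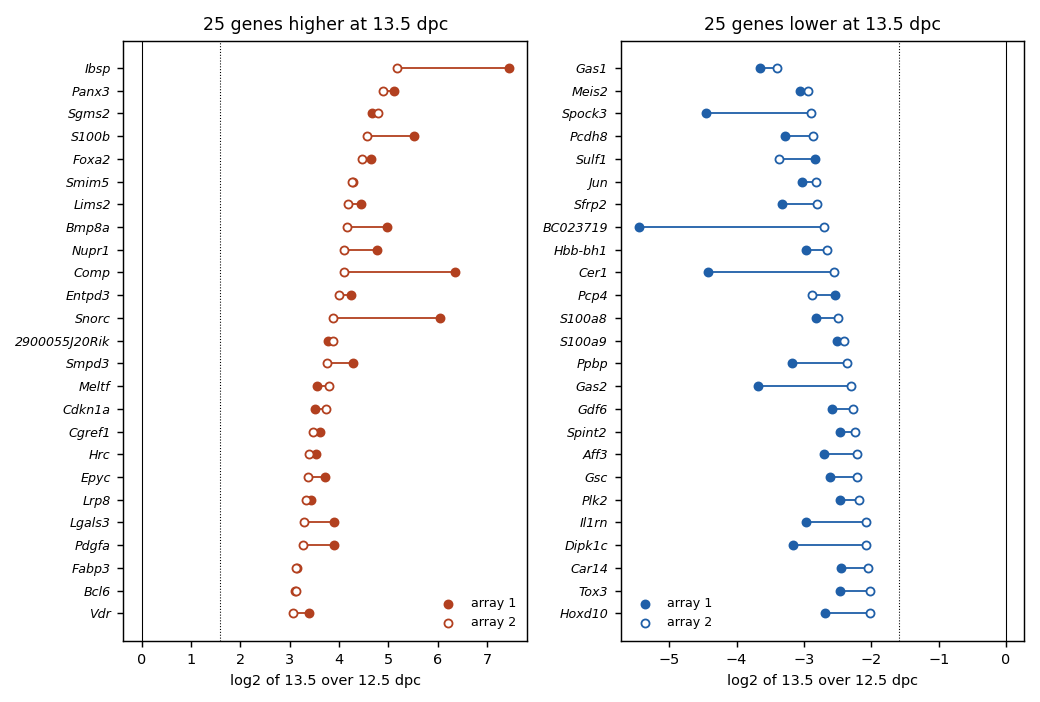
Log2 ratio of 13.5 over 12.5 dpc on array 1 (filled) and array 2 (open) for the 25 genes called higher and the 25 called lower with the largest value on the array where they differed less, joined by a line. The dotted line is 3-fold; Ibsp spans 5.17 to 7.44 and Gas1 spans -3.66 to -3.40, and the arrays of BC023719 lie furthest apart among the lower genes, at -5.45 and -2.70.

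Among the genes furthest below 0, Gas1, a membrane-anchored co-receptor for hedgehog ligands, had -3.66 and -3.40. Meis2, a TALE homeodomain protein of proximal limb cells, had -3.06 and -2.94, and Pcdh8, a protocadherin, had -3.28 and -2.86. Sfrp2, a secreted protein that binds Wnt ligands, had -3.33 and -2.81. All of these were more than 5-fold lower on each array. Sulf1, an extracellular enzyme that removes sulfate groups from heparan sulfate, had -2.83 and -3.37, and Jun, a subunit of the AP-1 factor, had -3.03 and -2.83 over 10 spots. Spock3, a secreted testican proteoglycan, had -4.46 and -2.90.

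Others of the 25 lowest encode signalling proteins and homeobox factors. Cer1, a secreted antagonist of Nodal and BMP ligands, had -4.43 and -2.56, and Gdf6, a growth factor of joints, had -2.59 and -2.28. Gsc, the homeobox factor goosecoid, had -2.62 and -2.21, and Hoxd10 had -2.69 and -2.01. Il1rn, the antagonist of the interleukin 1 receptor, had -2.98 and -2.08, though 1 of its 2 spots had a mean of -0.96. For Cer1 the arrays were apart by more than a log2 unit, and for Gdf6 and Gsc they were within 0.5. Gas2, a protein of the actin cytoskeleton, had -3.68 and -2.30, Pcp4, which binds calmodulin, had -2.55 and -2.89, Plk2, a polo-like kinase, had -2.46 and -2.18, and Car14, a carbonic anhydrase, had -2.45 and -2.05. Spint2, an inhibitor of serine proteases, had -2.47 and -2.24. BC023719, Aff3, Dipk1c and Tox3 lay between -5.45 and -2.02 on the arrays, and the last 4 of the 25 are genes of blood cells, described with the other cell types.

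Promoters of the called genes were examined for 4 short motifs, in the RefSeq sequences from 250 bases before to 50 after the transcription start (build GRCm38.p6, the promoter listed first for each gene, both strands). Such a promoter was found for 137 of the 188 genes called higher, 52 of the 63 called lower and 15199 of the genes measured. A TATA box, searched as TATAAA, occurred in 10.9% of the promoters of genes called higher, 26.9% of those called lower and 1820 of the 15199 in all. A SOX motif, searched as ACAAAG or ACAATG, occurred in 26 of the 137, 13 of the 52 and 24.3% of all. The core bound by ATF and CREB factors, TGACGT, occurred in 11.7%, 11.5% and 9.62%, and an E2F motif, TTTGGCGC or TTTCCCGC, in 2 of the 137, 0 of the 52 and 2.34% of all. The TATA share among the 52 is 14 promoters. These shares describe letters in a window and do not show binding. To let the TATA-bearing promoters of both directions be compared, 3 of genes called higher and 3 of genes called lower follow, 5′ to 3′ on the strand of the gene, with every match to a motif in capitals.
Ibsp (chr5:104299037-104299336, plus strand): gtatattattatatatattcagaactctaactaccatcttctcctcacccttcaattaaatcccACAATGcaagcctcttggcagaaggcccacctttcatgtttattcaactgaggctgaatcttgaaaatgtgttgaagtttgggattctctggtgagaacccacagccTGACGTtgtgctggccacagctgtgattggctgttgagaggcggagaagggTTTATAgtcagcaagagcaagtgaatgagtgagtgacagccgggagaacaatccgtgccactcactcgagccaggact
Chad (chr11:94564797-94565096, plus strand): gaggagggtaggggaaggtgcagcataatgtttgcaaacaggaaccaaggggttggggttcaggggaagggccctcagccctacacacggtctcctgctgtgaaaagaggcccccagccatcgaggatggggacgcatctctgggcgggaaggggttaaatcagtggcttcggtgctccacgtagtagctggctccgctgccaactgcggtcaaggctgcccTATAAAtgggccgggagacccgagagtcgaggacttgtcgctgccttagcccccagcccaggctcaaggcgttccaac
Col11a2 (chr17:34038888-34039187, plus strand): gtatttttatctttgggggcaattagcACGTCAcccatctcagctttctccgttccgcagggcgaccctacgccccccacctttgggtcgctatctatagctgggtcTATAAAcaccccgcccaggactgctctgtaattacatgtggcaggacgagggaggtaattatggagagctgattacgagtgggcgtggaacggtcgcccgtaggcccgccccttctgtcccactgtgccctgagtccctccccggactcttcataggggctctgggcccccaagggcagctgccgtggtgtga
Meis2 (chr2:116064570-116064869, minus strand): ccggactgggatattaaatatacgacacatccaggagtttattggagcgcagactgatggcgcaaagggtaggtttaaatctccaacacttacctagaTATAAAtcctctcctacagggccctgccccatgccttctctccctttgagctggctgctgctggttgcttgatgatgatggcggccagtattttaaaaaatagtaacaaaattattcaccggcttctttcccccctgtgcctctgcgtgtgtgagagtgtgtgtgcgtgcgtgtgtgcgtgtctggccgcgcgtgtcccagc
Pcdh8 (chr14:79771263-79771562, minus strand): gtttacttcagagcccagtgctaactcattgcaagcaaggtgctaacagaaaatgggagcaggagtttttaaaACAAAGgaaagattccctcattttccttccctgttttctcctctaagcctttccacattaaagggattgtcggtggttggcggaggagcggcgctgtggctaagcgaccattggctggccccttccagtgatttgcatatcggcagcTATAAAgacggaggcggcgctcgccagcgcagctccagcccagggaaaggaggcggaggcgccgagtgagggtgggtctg
Gsc (chr12:104473187-104473486, minus strand): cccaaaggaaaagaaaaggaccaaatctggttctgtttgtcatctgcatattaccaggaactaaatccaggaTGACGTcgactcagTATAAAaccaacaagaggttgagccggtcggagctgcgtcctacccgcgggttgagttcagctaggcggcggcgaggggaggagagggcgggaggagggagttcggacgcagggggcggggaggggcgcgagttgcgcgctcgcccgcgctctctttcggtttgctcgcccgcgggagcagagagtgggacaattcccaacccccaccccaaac
In Ibsp, Chad and Pcdh8 the TATA match began at position -28, -28 and -30 from the start, whereas in Col11a2, Meis2 and Gsc it began at -143, -152 and -164. The match in Ibsp reads TTTATA on the strand of the gene, so its TATAAA lies on the opposite strand. The ATF/CREB core of Col11a2, read as ACGTCA, lies on the opposite strand too. Ibsp also held an ATF/CREB core at -79 and a SOX motif at -186, Pcdh8 a SOX motif at -177, and Col11a2 and Gsc an ATF/CREB core at -223 and -178.

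Genes were then read by 34 lists of tissue functions and 8 lists of markers of other cell types, each described by its counts and its median. Members were chosen with earlier results of these data known, so the counts are partly set by that choice. Over all genes 0.992% were called higher and 0.332% lower, and the median was -0.01. At these shares a list may hold 0 calls, so 0 calls is not read as a result about its members. All 11 cartilage collagens measured lay above 0 on both arrays and 4 were called higher. The median was 1.82, or 1.74 on array 1 alone and 1.08 on array 2 alone. Col11a1 and Col11a2, chains of the type XI collagen that sets fibril diameter, had log2 ratios of 3.18 and 2.53, and of 2.26 and 2.08, but their spots ran from 1.43 to 5.73 and from 0.99 to 3.35. Col9a1 and Col9a3, chains of the type IX collagen on the fibril surface, had 1.74 and 1.89, and 2.33 and 2.65. Col2a1, the main fibril collagen, was not called: its 12 spots had a mean of 3.22 on array 1 and 0.76 on array 2. Col9a2, at 3.18 and 0.69, showed the same gap, with the larger value where 13.5 dpc carried Cy5. Col10a1, the collagen of hypertrophic cartilage, had 0.97 and 0.27 from 1 spot marked weak.

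Of 18 proteoglycans and link proteins, 7 were called higher and none lower, with a median of 1.31. Acan, the core protein of aggrecan, had 3.65 and 2.46, and Hapln1, the link protein that ties it to hyaluronan, had 3.09 and 3.05. Lum, Omd and Chad, members of the small leucine-rich family, had 3.02 and 1.85, 1.99 and 1.96, and 1.80 and 2.20, joining Snorc and Epyc. Both versican, Vcan, at -2.19 and -1.41, and neurocan, Ncan, at -1.74 and -1.48, lay below 0 on each array, while no other member did. Aggrecan and versican share a domain plan, and versican passed 3-fold on array 1 only.

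Of 27 other matrix glycoproteins, 11 were called higher and 1 lower, with a median of 1.16. Matrilins connect collagen and proteoglycan networks, and 3 of the 4 were called: Matn1 at 2.11 and 2.37, Matn2 at 3.37 and 2.88, and Matn3 at 2.38 and 2.86. Matn4 had 1.70 and 1.14. Thbs4, a relative of Comp, had 3.07 and 2.89, the mean of 1 spot at 0.97 and 1 at 4.99. Ucma, a small protein of upper-zone chondrocytes, had 3.17 and 2.74, and Mgp, an inhibitor of calcification, had 3.03 and 2.06. Cnmd, or chondromodulin, which keeps cartilage free of vessels, had 2.33 and 2.69. Cytl1, Cmtm5 and Ecrg4 were called as well, between 1.88 and 2.69. Otor, a secreted protein first known from the inner ear, was the member called lower, at -2.54 and -1.84. Fn1 and Tnc, glycoproteins of condensations, had 0.48 and 0.82, and 0.23 and 0.48.

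**Figure D3:**
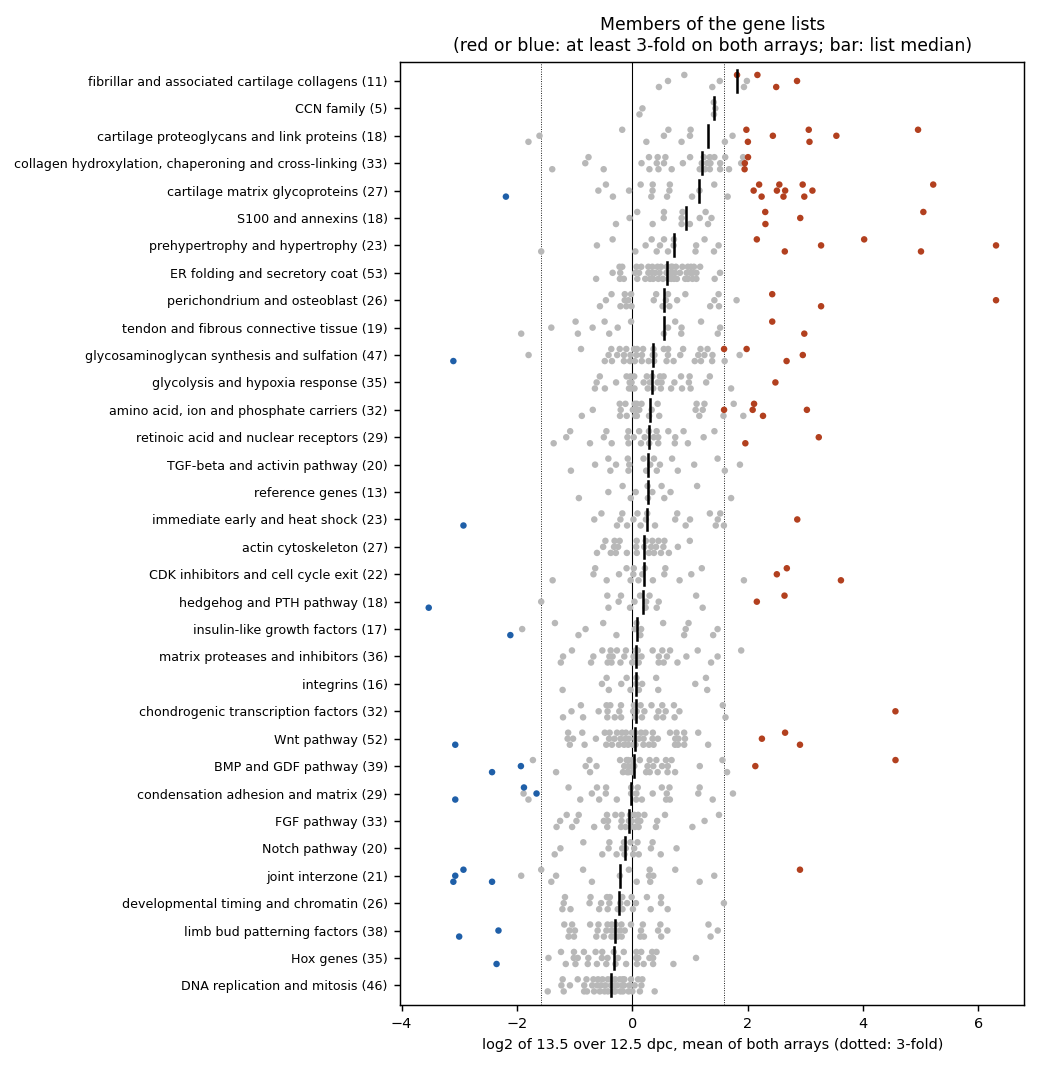
Mean log2 ratio of 13.5 over 12.5 dpc of each measured member of the 34 lists (number measured in brackets), sorted by list median (black bar), with dotted lines at 3-fold and members at least 3-fold on both arrays in red or blue. The cartilage collagens have a median of 1.82 and DNA replication and mitosis one of -0.37, the ends of this order, which differs by array: on array 2 the proteoglycans, at 1.30, lie above the collagens, at 1.08, and the Hox genes, at -0.53, are lower than replication, at -0.32.

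Genes that modify collagen and genes for folding and export lay mostly above 0. Of 33 genes for collagen hydroxylation, chaperoning and cross-linking, 26 lay above 0 on both arrays and 4 below, with a median of 1.20. Of these 33, 3 were called higher, beside 0.992% of all genes. The called genes were P4ha2, a subunit of prolyl 4-hydroxylase, at 1.94 and 1.97, P3h1, a prolyl 3-hydroxylase, at 1.81 and 2.08, and Pcolce2, an enhancer of procollagen cleavage, at 2.30 and 1.71. Crtap, the partner of P3h1, had 1.71 and 1.33, and the lysyl hydroxylase Plod2 had 1.02 and 1.66. Serpinh1, the collagen chaperone Hsp47, had 4.04 and -0.20, so the arrays did not settle its direction. Of 53 genes for folding in the endoplasmic reticulum and for vesicle coats, 38 lay above 0 on both arrays and 5 below, with a median of 0.60 and 0 called. With 0.992% of all genes called higher and 0.332% lower, a list of this size may hold no call. The highest were Kdelr3, a retrieval receptor, at 1.51 and 1.53, and Creb3l2, a transcription factor for secretory genes, at 1.44 and 1.42. Sec24d, a coat subunit needed for procollagen export, had 0.98 and 1.37. Hspa5, the chaperone BiP, had 1.04 and -0.90.

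Of 47 genes for glycosaminoglycan synthesis and sulfation, 4 were called higher and 1, Sulf1, lower, with a median of 0.37. Csgalnact1, which starts the chondroitin chain, had 2.97 and 2.94, Chst1, a sulfotransferase of keratan sulfate, had 2.47 and 2.88, and Chst11, which sulfates chondroitin, had 2.01 and 1.95. Slc26a2, the sulfate carrier mutated in diastrophic dysplasia, had 1.58 and 1.60 and lies just inside the threshold. The chain polymerising factor Chpf, at 1.56 and 2.16, lay just outside it. Heparan sulfate sulfotransferases lay on both sides: Hs3st1, from 1 weak spot, had -2.08 and -1.52, and Hs3st3b1, which is not in the list and was added after its values were seen, was called higher at 2.59 and 2.56.

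Carriers and channels included 5 called higher and 0 lower among 32. Trpv4, a calcium channel that opens on stretch and osmotic change, had 3.39 and 2.67, and Aqp1, a water channel, had 2.30 and 2.23. The metal carriers Slc39a14 and Slc40a1 had 1.87 and 2.35, and 1.85 and 2.32. In a list of 18 S100 proteins and annexins, 15 lay above 0 on both arrays, 0 below, and 4 were called higher, with a median of 0.93. The list leaves out S100a8 and S100a9, which were both called lower and are given with the blood genes. Besides S100b the called members of the list were S100a1 at 2.26 and 2.35, Anxa11 at 2.72 and 3.10, and Anxa1 at 2.29 and 2.32. Anxa5, an annexin of matrix vesicles, had 1.63 and 1.12. Of 35 genes of glycolysis and the hypoxia response, Slc16a3, a lactate exporter, was called at 2.58 and 2.38. The glucose carrier Slc2a1 had 1.23 and 0.79. The abundant glycolytic genes Pgk1, at 1.67 and -0.66, and Ldha, at 1.18 and -0.65, had arrays of opposite sign.

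Genes of prehypertrophic and hypertrophic cartilage held some of the largest differences. Of 23 measured, 18 lay above 0 on both arrays, 6 were called higher and 0 lower, and the median was 0.72. Ibsp, Panx3 and Smpd3 were joined by Alpl, the phosphatase of mineralisation, at 3.48 and 3.06, by Cd200, a surface glycoprotein, at 2.60 and 2.69, and by Pth1r, the receptor for parathyroid hormone and its related protein, at 2.26 and 2.06. Ihh, which encodes the ligand of prehypertrophic cells, had 0.90 and 1.31, and its receptor Ptch1 had 0.59 and -0.13. Sp7, a factor of osteoblasts, had 1.61 and 1.38, just short of 3-fold on array 2. Mmp13, a collagenase of late hypertrophy, had -0.05 and -0.63 from 1 weak spot, and Dmp1 had -0.41 and -0.82. Of 26 genes of perichondrium and osteoblasts, Col1a1, the main collagen of bone, was called at 2.94 and 1.91 over 12 spots that ran from 0.57 to 2.80, beside Ibsp and Alpl, while its partner chain Col1a2 had 1.75 and -0.51. Postn, a protein of the perichondrium, had -0.18 and -0.03.

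Among 32 transcription factors known in cartilage, Foxa2 alone was called. Sox9, Sox5 and Sox6, the core regulators, had 0.32 and 0.02, -0.50 and -0.27, and 0.15 and 0.13, all within 0.5 of the centre. The study proposes that its Sox5 probe, placed upstream of the end of the coding sequence, likely hybridised poorly to the amplified RNA. The median of the list was 0.06, and -0.13 without centring. Foxa3 had 1.47 and 1.76, Sox8 had 1.48 and 1.66, and Mef2c, which promotes hypertrophy, had 1.39 and 0.05. Pax9 and Pax1 lay below 0, at -1.12 and -0.98, and at -1.22 and -0.57.

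Of 22 inhibitors of the cell cycle and exit genes, 11 lay above 0 on both arrays and 5 below, the median was 0.20, or 0.01 without centring, and 3 were called higher: Cdkn1a, Cdkn2b at 2.60 and 2.41, and Gadd45g at 2.79 and 2.57. Cdkn1c, the inhibitor p57 of prehypertrophic chondrocytes, had 4.06 and -0.19, and its direction was not settled. Of 46 genes of DNA replication and mitosis, 32 lay below 0 on both arrays and 4 above, the median was -0.37, and 0 were called. The lowest were Top2a, a topoisomerase, at -1.49 and -1.44, and Bub1, a spindle checkpoint kinase, at -1.14 and -1.32. Mki67 had -0.08 and -0.24. The list leaves out Prim2, a subunit of DNA primase, picked here after its values were seen. Prim2 was called higher from 1 spot, with a mean of 3.23 and a technical error of 0.23. In 12.5 over 11.5 dpc it had -3.87 and -4.01, so the 12.5 dpc pool lay below both others.

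In the BMP pathway of 39 genes, the ligands Bmp8a and Bmp7 were called higher, Bmp7 at 2.04 and 2.23 over 11 spots, and the ligand Gdf6 and the receptor Bmpr1b were called lower, Bmpr1b at -2.25 and -1.61. Grem1, a BMP antagonist of the limb bud, had -1.95 and -1.50, and Gdf5, which signals through Bmpr1b in joints, had -1.27 and -1.38. Ligands therefore lay at both ends of the list, and its median was 0.03, or -0.15 without centring. Among 52 Wnt pathway genes, Wnt4, a ligand of joints and perichondrium, had 2.89 and 2.92, the receptor Fzd9 had 2.33 and 2.16, and Notum, an enzyme that inactivates Wnt ligands, had 3.07 and 2.23. Sfrp2 was the member called lower. The other genes of the pathway were not called.

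In the hedgehog and parathyroid hormone list of 18, Dhh, the ligand desert hedgehog, was called higher at 2.52 and 2.76, with Pth1r, and Gas1 was called lower. Hhip, another hedgehog-binding surface protein, had -1.84 and -1.32. The transcription factors Gli1, Gli2 and Gli3 had 0.25 and 0.59, -0.17 and -0.22, and -0.86 and 0.00. Of 29 genes of retinoic acid and nuclear receptors, Vdr and Cyp26a1, which degrades retinoic acid, were called, Cyp26a1 at 1.70 and 2.21. Aldh1a2, which makes retinoic acid, had -1.44 and -0.85, and the binding protein Crabp2 had -1.88 and -0.85. Igf1, a growth factor of mesenchyme, was called lower at -2.43 and -1.80 over 11 spots, while Igf2 had 3.24 and -1.39. No gene was called among 33 of the FGF pathway, 20 of the TGF-beta pathway or 20 of the Notch pathway. At the shares over all genes, 0.992% higher and 0.332% lower, lists of this size may hold no call. Fgf18 and Fgfr3, ligand and receptor of growth cartilage, had 1.38 and 1.62, and 1.28 and 1.22.

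Other lists held few calls. Of 23 immediate early and heat shock genes, Klf4, a zinc finger factor of differentiating cells, was called higher at 3.06 and 2.66 and Jun lower, while Fos, the partner of Jun, had 0.60 and 1.25 over 11 spots. The 2 genes called in that list thus lay on opposite sides. In the CCN family of matricellular proteins 0 of 5 were called and the median was 1.41, or 0.18 on array 2 alone, with Ccn1 at 1.35 and 1.47, Ccn4 at 1.28 and 1.59, and Ccn2, or connective tissue growth factor, at 2.65 and 0.18. No gene was called among 36 matrix proteases and inhibitors, 16 integrins or 27 genes of the actin cytoskeleton, whose medians were 0.07, 0.07 and 0.21. The absence of calls there is near the shares over all genes, 0.992% higher and 0.332% lower. Means of the integrins ran from -1.21 for Itga2 to 1.30 for Itga11, both chains of collagen receptors. Of 13 reference genes often used to scale expression, 0 were called and the median was 0.27, with Gapdh at 2.06 and 1.36, Actb at 0.04 and 0.65 over 10 spots and Tbp at -0.75 and -1.10 over 11 spots.

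In the joint interzone list of 21 genes, 4 were called lower and 1 higher, beside 0.332% and 0.992% of all genes. Gdf6, Jun, Sfrp2 and Sulf1 were called lower and Wnt4 higher, and each is also counted in another list above. Of the 21 genes, 10 lay below 0 on both arrays and 8 above, and the median was -0.22. Osr1 and Osr2, zinc finger factors of joints, had -1.38 and -1.43, and -2.36 and -1.49. Nog, the BMP antagonist that joints need, had -0.08 and 0.81, and Erg had -0.50 and 0.07.

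Condensation genes lay on both sides of 0. Of 29 adhesion and matrix genes of condensations, 3 were called lower and 0 higher, 13 lay below 0 on both arrays and 11 above, and the median was -0.02. The called members were Pcdh8, Pcdh10 at -2.11 and -1.65, and Cdh8 at -1.71 and -1.61. The 4 spots of Pcdh10 ran from -2.69 to -0.67, and the 3 of Cdh8, of which 2 were weak, from -3.80 to -0.27. All 3 called genes encode adhesion proteins of the cadherin superfamily. Epha7, a receptor for ephrins, had -2.30 and -1.47. Cdh2 and Ncam1, the adhesion molecules that define condensations, had -0.11 and -0.42, and -0.13 and 0.31 over 17 spots. Sdc4, a syndecan, had 1.51 and 1.98 at the other end.

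Factors that pattern the limb bud lay mostly below 0. Of 38, 22 were below 0 on both arrays and 8 above, the median was -0.31, and Meis2 and Tbx18, a factor of proximal mesenchyme at -2.63 and -2.01, were called. Tbx4 and Tbx5, hind and fore limb factors, had -1.49 and -0.87, and -0.85 and -1.14. Prrx1, which marks limb mesenchyme, had -0.67 and -0.53. Above 0 were Irx5, at 1.5 and 1.47, Alx1 and Tbx2. Of 35 Hox genes, 19 were below 0 on both arrays and 8 above, with a median of -0.32, and Hoxd10 was called. Some other genes of the same or adjacent Hox groups, such as Hoxa10 at -1.52 and -1.39, Hoxd11 at -1.58 and -0.73 and Hoxd9 at -1.0 and -0.68, were below 0 as well. Of 26 genes of developmental timing and chromatin, 16 lay below 0 on both arrays and 6 above, with a median of -0.23 and 0 called. Ezh2, the methyltransferase of the Polycomb complex, had -1.28 and -1.15, Lin28b, a timing factor, had -1.45 and -0.69, and Myc had 1.44 and 1.73 over 12 spots.

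Other cell types were read from 8 marker lists, since dissected tissue can hold more than chondrocytes. Hbb-bh1, an embryonic globin, was called lower at -2.97 and -2.65, and of 11 erythroid genes 8 lay below 0 on both arrays and 0 above, with a median of -0.25, among them Hbb-y at -1.57 and -1.27. S100a8 and S100a9, the calprotectin subunits of neutrophils, which are in none of the lists, were called lower at -2.83 and -2.49, and at -2.51 and -2.41. Among 16 macrophage and platelet genes, the platelet chemokine Ppbp was called lower at -3.17 and -2.37 and Pf4 had -1.96 and -1.52, while Gp1bb, a platelet receptor subunit, was called higher at 1.90 and 2.50. Genes of blood cells are thus among the 25 lowest, and the part that blood in the sections had in the other genes called lower was not tested.

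Of 14 Schwann cell markers, 10 lay above 0 on both arrays and 1 below, the median was 0.49, and Dhh was called. Mbp, a myelin protein, had 1.58 and 1.62 over 12 spots, Fabp7 had 1.70 and 1.13, and Sox10, the defining factor of the lineage, had 0.00 and 0.41. S100b is known from these cells too, and their part in the values of S100b and Dhh was not tested. Of 19 ectoderm markers 11 lay below 0 on both arrays, among them Krt15 at -1.58 and -1.31 and Epcam at -0.80 and -1.11, whereas Perp, a desmosomal protein, was called higher at 3.05 and 2.51.

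Muscle genes were divided. Of 26, 12 lay above 0 on both arrays and 7 below, with a median of 0.12, or -0.07 without centring, and 0 called. The contractile genes Tnni2, Myh3 and Acta1 had 1.26 and 1.53, 1.32 and 1.42, and 1.31 and 1.27, while the factor Myog had -0.95 and -1.04. The list leaves out Myh7, a myosin heavy chain, and Sgca, a sarcoglycan, picked here after their values were seen. Both were called higher, Myh7 at 2.59 and 2.79 and Sgca at 1.82 and 2.14. Tendon and fibrous tissue held 2 called members of 19, Thbs4 and Col1a1, both also matrix genes of the skeleton, while the tendon factor Scx had -1.10 and -0.79. The list's median of 0.55 was -0.01 on array 2 and 0.10 on array 1. No gene was called among 20 of endothelium, 13 of neurons and 12 of pericytes, with medians of -0.22, -0.21 and -0.25. With 0.992% of all genes called higher and 0.332% lower, lists this short may hold no call.

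**Figure D4:**
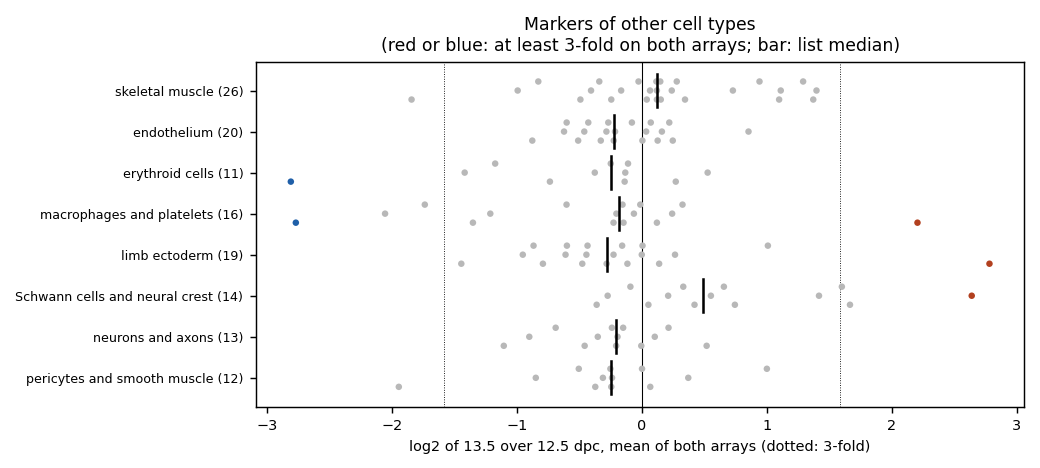
Mean log2 ratio of 13.5 over 12.5 dpc of the markers of 8 other cell types (number measured in brackets), with the list median as a black bar and dotted lines at 3-fold. Hbb-bh1 and Ppbp (blue) are the called members below 0, and Gp1bb, Perp and Dhh (red) those above.

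The earlier interval, 12.5 over 11.5 dpc, is set beside the later one for the genes above. It shares the 12.5 dpc pool, so the intervals are not independent and no relation between them was computed. Panx3 had log2 ratios of 3.58 and 4.52 in the earlier interval, and Snorc had 4.08 and 4.01. Comp had 3.21 and 3.43, and Epyc had 2.16 and 3.70. These 4 genes were past 3-fold on both arrays in both intervals, and they were not the only ones. Among others named above, Hapln1 had 4.63 and 5.32 in the earlier interval, Matn3 1.95 and 2.37, and Trpv4 2.24 and 2.33. For Foxa2 the earlier interval gave 0.12 and 0.80, for Cdkn1a 0.04 and 0.94, and for Nupr1 0.73 and -0.39. In these 3 neither array of the earlier interval reached 3-fold.

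Among the genes called lower, the earlier values ran from below to above 0. Hbb-bh1 had -2.58 and -2.67, past 3-fold in both steps. Gas1 had -1.19 and -1.16, Sfrp2 -1.11 and -1.10, Meis2 -0.99 and -1.0, and Sulf1 0.37 and 0.08. Gdf6 had 1.26 and 2.22, Cer1 1.07 and 1.48, and S100a9 2.22 and 3.12, so that in these 3 the 12.5 dpc pool was above both the 11.5 and the 13.5 dpc pool on every array that compared them.

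**Figure D5:**
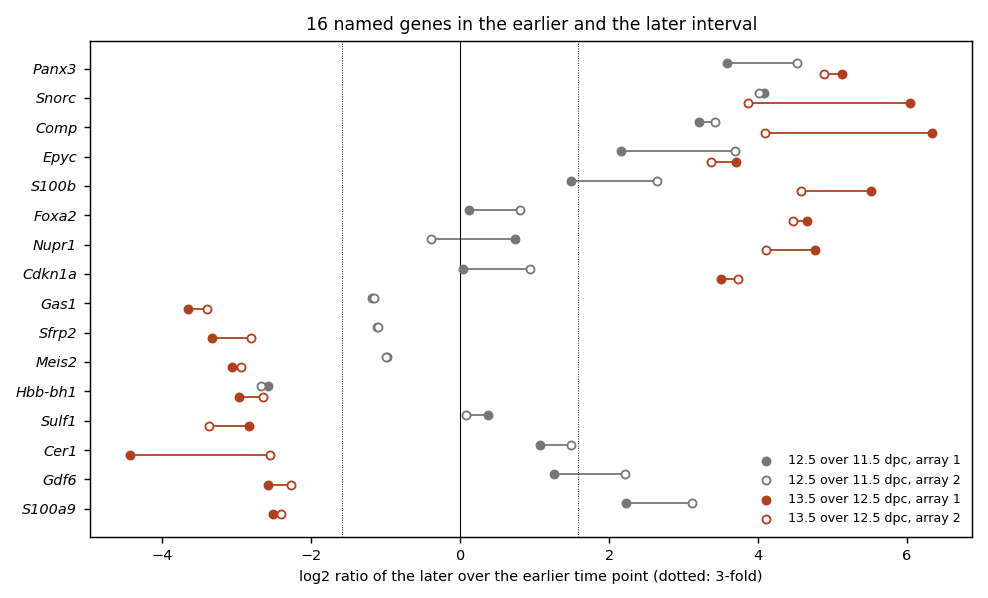
Log2 ratio of the later over the earlier time point for 16 genes in 12.5 over 11.5 dpc (grey) and 13.5 over 12.5 dpc (red), each on array 1 (filled) and array 2 (open), with dotted lines at 3-fold. Panx3 and Snorc lie above 3-fold in both intervals, Foxa2 and Cdkn1a only in the later one, and Cer1, Gdf6 and S100a9 lie above 0 in the earlier and below 0 in the later interval.

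Around the threshold, Slc26a2 at 1.58 and 1.60, Tead4 at 2.25 and 1.62 and 2900092D14Rik at 1.90 and 1.62 were the last genes inside on the higher side, and Camk4 at 1.86 and 1.58, Mapk13 at 1.58 and 1.72 and Mbp at 1.58 and 1.62 the first outside. On the lower side the last inside were Bmpr1b at -2.25 and -1.61, Cdh8 at -1.71 and -1.61 and Plk5 at -1.96 and -1.61. Dnase2a at -1.58 and -1.58, Gdpd3 at -1.92 and -1.55 and Fam181b at -1.69 and -1.53 were the first outside.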

How the data were processed

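The deposited values are log2 ratios of Cy5 over Cy3 per spot, which the authors took from scans quantified with GenePix Pro; no depth or signal level was used here, and the number of arrays limits the precision. The loess step in the methods does not show in the values, whose medians were 0.205 and 0.58 on arrays 1 and 2. Values above 16 in size (54 and 60) were dropped, 799 and 301 spots had no value, the median of each array was subtracted, and the sign was turned where 13.5 dpc carried Cy3, from the dyes in the labels. Before turning, the spots correlated with r = -0.332. The labels and the methods name different RNA kits and amounts. Probes were joined to genes through the platform annotation: of 45220 spots, 33653 have 1 symbol, 56 several and 11511 are not listed, and 33517 symbols were updated from RefSeq. A match to a ratio of whole numbers allowed 0.0006 log2; after a small shift of all values at most 2.1% matched, against 28.6% and 16.6%. Named genes are the 25 called higher and the 25 called lower with the largest value on the array where they differ less and with at least 1 spot not marked weak, and list members that were called, define a list or have arrays of opposite sign. Members, lists and rules were chosen with earlier results of these data known. Genes with no spot annotated to them, such as Runx2 and Spp1, were not analysed here. The code was tested on simulated data. Python 3.11.15, pandas 2.3.3 and numpy 2.4.6 were used.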

Additional observations from a re-analysis of the deposited data

Results flagged for a closer look

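In 3 of the 50 named genes, both arrays of 12.5 over 11.5 dpc lay at least 2-fold above 0 and both arrays of 13.5 over 12.5 dpc lay below it. The later mean was -2.46 for S100a9, -2.43 for Gdf6 and -3.50 for Cer1, against earlier means of 2.67, 1.74 and 1.28. The intervals share the 12.5 dpc pool, so a deviation of that pool gives opposite signs in both, and the difference between the intervals was not tested.

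Among spots with no gene symbol, 83 passed 3-fold on both arrays in the higher direction and 47 in the lower, of 10934 such spots with both values. They enter no result above.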

How the results depend on the processing

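With 1 pool for each stage, every value is a difference between 2 pools and amplification and litter cannot be told apart from stage. No paired analysis was possible because the arrays repeat the same pools and no result comes from a test. Against 188 genes higher and 63 lower, the counts were 118 and 126 without centring, 599 and 277 at 2-fold, 111 and 27 at 4-fold, and 297 and 291 on the path through 11.5 dpc, which uses the other 4 arrays. Taking the spot with the smallest array difference gave 286 higher; lower genes numbered 141 with 3-fold asked of the mean only and 127 in a least-squares fit of all 6 arrays. With either array alone the counts ranged from 341 to 390 higher and from 197 to 370 lower. The other settings stayed within 1.5 times. The higher share of calls, 74.9%, was 48.4% without centring, 64.8% for calls on the mean, 50.5% on the path through 11.5 dpc, and 63.4% and 51.3% on array 2 and array 1 alone. Of the 188 and 63 genes, 178 and 61 passed 3-fold on the path through 11.5 dpc too, 1 and 2 having no value there, and none changed sign. Of 105 named genes checked, 0 changed sign in 11 settings. Without centring 89 stayed called, and in each other setting at least 98 did. All 105 were chosen for passing 3-fold on both arrays. With either array alone, none of them could therefore change sign or lose its call. Scaling could not turn a sign, and the shift from centring was smaller than the threshold. Of 42 list medians, 8 changed sign without centring, all of them between 0.03 and 0.18 before, and 5 and 4 did so on array 2 and array 1 alone. The tendon median of 0.55 was -0.15 on the path through 11.5 dpc and -0.03 with the spot of smallest array difference. The cause was not tested in any of these.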

Other observations

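Outside the lists and the 50 named genes, 114 further genes were called higher and 31 lower, and those named here were picked after their values were seen. The 3 members of the Fam20 family of the secretory pathway were all called higher: Fam20a had log2 ratios of 2.18 and 1.85, Fam20b, which phosphorylates the linker of proteoglycan chains, had 1.97 and 1.93 over 3 spots that ran from 0.09 to 4.52, and Fam20c, which phosphorylates secreted matrix proteins, had 2.46 and 1.83. Gsn and Scin, which sever actin filaments, had 3.33 and 2.69, and 2.27 and 2.7. Genes of bone and of endochondral growth among them were Ifitm5, an osteoblast membrane protein, at 2.93 and 2.94, Ostn, a secreted peptide of bone and muscle, at 3.43 and 2.05, C1qtnf3, a secreted protein of cartilage, at 3.17 and 1.93 over 2 spots with means of 1.28 and 3.83, and Prkg2, a cyclic GMP kinase needed for chondrocyte maturation, at 1.72 and 2.25. Lmna, the nuclear lamin A, had 2.09 and 1.86, and Neat1, a nuclear RNA, had 3.16 and 2.44. Among the genes called lower, Mab21l1 and Mab21l2, a pair of developmental regulators, had -2.14 and -1.66, and -2.27 and -1.75, and Mgst1 and Gsta4, of the glutathione transferases, had -2.22 and -1.62, and -1.61 and -1.72.

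Of 28 histone genes, collected by symbol after the values were seen, 17 lay below 0 on both arrays and 0 above, with a median of -0.60, and H2bu2 was called lower at -2.01 and -1.89. Of 82 subunits of the respiratory chain, 0 were called, and their median was 0.33 on array 1 and -0.28 on array 2.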
